A study of Homo sapiens with 4 samples.

Results

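RARRES1 and 9 further genes of retinoid signalling (RARRES2, RARA, RARB, RARG, RXRA, RXRB, DHRS3, RDH10 and CRABP2) were followed in HT-29, a human colorectal adenocarcinoma line. They were chosen by gene symbol from 20322 targets, each gene being represented by 1 transcript, and all 10 were found. The list was built around RARRES1 because of its difference between the groups in these libraries, so the members' values in that comparison are a description and carry no test. In all libraries the gene of IMP1 (IGF2BP1), an RNA-binding protein, had been targeted with CRISPR/Cas9. The 2 null libraries carried an empty PiggyBac vector (PB*-empty), and the 2 IMP1-OE libraries carried PB*-FLAG-IMP1-short UTR, which supplies tagged IMP1. Both groups share the deletion background, puromycin in the medium and, per the labels, an origin in a mouse liver metastasis. The comparison asks which mRNAs differ in level when IMP1 is present again. The series describes 2 HT-29 lines per genotype but does not say whether they are separate clones or cultures, so errors and p-values measure only the spread between these libraries, which may be technical.

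Retinoic acid is made from vitamin A (retinol). Retinol dehydrogenases such as RDH10 oxidise retinol to retinal, DHRS3 reduces retinal back to retinol, and ALDH1A enzymes turn retinal into retinoic acid. CRABP2 carries retinoic acid to the nucleus, where retinoic acid receptors (RARA, RARB, RARG) paired with retinoid X receptors (RXRA, RXRB) bind DNA at direct repeats of a short hexamer and switch genes such as CYP26A1, RARB and DHRS3 on. CYP26 enzymes then break the acid down. In the intestine the pathway is known for a part in epithelial differentiation, and RARRES1 (retinoic acid receptor responder 1) encodes a membrane protein related to the carboxypeptidase inhibitor latexin that is often silenced in tumours.

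The DNA letters that retinoid receptors recognise are shown for a few genes whose promoter windows hold them and whose levels are described further on. Sequences are from RefSeq on GRCh38.p14, and each window runs from 250 bases before to 50 bases after an annotated start. Windows were found for 9 of the 10 members, 18 in all. Capitals mark the 2 hexamers of a direct repeat with a 5-base spacer (the DR5 retinoic acid response element), or a single AGGTCA hexamer, and both strands were searched. In the repeats each hexamer could be AGGTCA itself, the form AGTTCA, the form GGGTCA or the form GGTTCA.
RARB, DR5, chr3:25428204-25428232, plus strand: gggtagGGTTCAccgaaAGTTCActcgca
CYP26A1, DR5, chr10:93073797-93073825, minus strand: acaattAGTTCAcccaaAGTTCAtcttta
DHRS3, AGGTCA, chr1:12596768-12596795, plus strand: tggtgtggggaAGGTCAaaagtgcaaga
RARA, AGGTCA, chr17:40308939-40308966, plus strand: tctcctgtttcAGGTCAtcctatcctcg
BTG2, AGGTCA, chr1:203305314-203305341, minus strand: tggcggcgctgAGGTCAtcgctcgctgt
The RARB repeat begins 53 bases before a start and the CYP26A1 repeat 90 bases before. Of all 35116 windows, 31 (0.0883%) held a DR5 element and 13.8% held AGGTCA. The members' windows held AGGTCA in 3 of 18, for RARA, RARB (in a second window, away from its DR5 repeat) and DHRS3. STRA6, the retinol uptake receptor gene, held AGGTCA in 2 windows, which are not printed. The window of RARRES1 held neither, nor a direct repeat with a spacer of 1 or 2 bases (0.131% and 0.0399% of all windows). The same was true of ALDH1A3 and LXN, described further on, with 1 window each. For PLAAT4 and TGM2 no window was found. A match is a description of the letters, and no match says only that they are not in the window.

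Library totals ran from 9343429 to 10594813 estimated counts, so 3 counts, the most that a count of 0 allows, equal 0.283 to 0.321 CPM (counts scaled to library size). CPM values were further scaled by TMM, a correction for library composition, and group values are mean ± SD with n = 2. IGF2BP1 was at 37 and 16 counts in null and at 71 and 112 in IMP1-OE, so its order follows the labels. The summed CPM of 8 colon epithelial markers was 18222 to 24824. Most of it came from the keratins KRT8 (9484 to 12826 CPM) and KRT18 (6865 to 10632 CPM). CDX2 stood at 4.60 CPM in null replicate 1 and at 0 to 0.285 CPM in the other libraries. GPA33 stood at 5.87 CPM in null replicate 1 and at 0 to 0.438 CPM in the others. The highest fibroblast sum below was also in null replicate 1, where LUM was at 7.24 CPM, against 0.547 to 0.856 CPM in the others. Markers of hepatocytes summed to 3.61 to 7.32 CPM and those of fibroblasts to 2.09 to 13.1 CPM, with ALB, APOA1, CYP3A4, HP and PDGFRA at 0 counts. The leukocyte list summed to 1447 to 2834 CPM, of which LYZ made up 1378 to 2798, while CD3E was at 0 counts and PTPRC reached 0.475 CPM. Null replicate 2 stood apart in interferon-stimulated genes, whose 19 listed members summed to 8871 CPM there, against 1231 in null replicate 1 and 970 and 1245 in IMP1-OE.

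RARRES1 was the member with the largest difference between the groups. Its level was 30.9 and 61.3 CPM in the null libraries and 7.52 and 5.13 CPM in the IMP1-OE libraries, from 316, 560, 79 and 54 counts. Both null libraries were above both IMP1-OE libraries, and the lower null library was still over the higher IMP1-OE library. Means were 46.1 ± 21.5 CPM in null and 6.33 ± 1.69 CPM in IMP1-OE, a 7.27-fold lower level with IMP1 (log2 fold change -2.86, SE 0.42). Among the 12113 genes tested, it ranked as number 99 from the most negative log2 fold change. In the authors' deposited table its log2 value is -2.70 and its adjusted p 3.65e-07. RARRES1 was chosen for its difference in these same libraries, so that adjusted p is a description and carries no test. In edgeR's quasi-likelihood test the smallest adjusted p over all 12113 genes was 0.0978, and RARRES1 did not pass the threshold used here. RARRES1 was 1.98-fold higher in null replicate 2, the library with the high interferon genes, than in null replicate 1. Leaving that library out gave a log2 fold change of -2.29, and leaving out the other null library gave -3.27. The part of interferon signalling in the size of the difference was not tested. In bulk RNA of this kind, fewer cells that express a gene and less of its RNA per cell cannot be told apart.

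**Figure D1:**
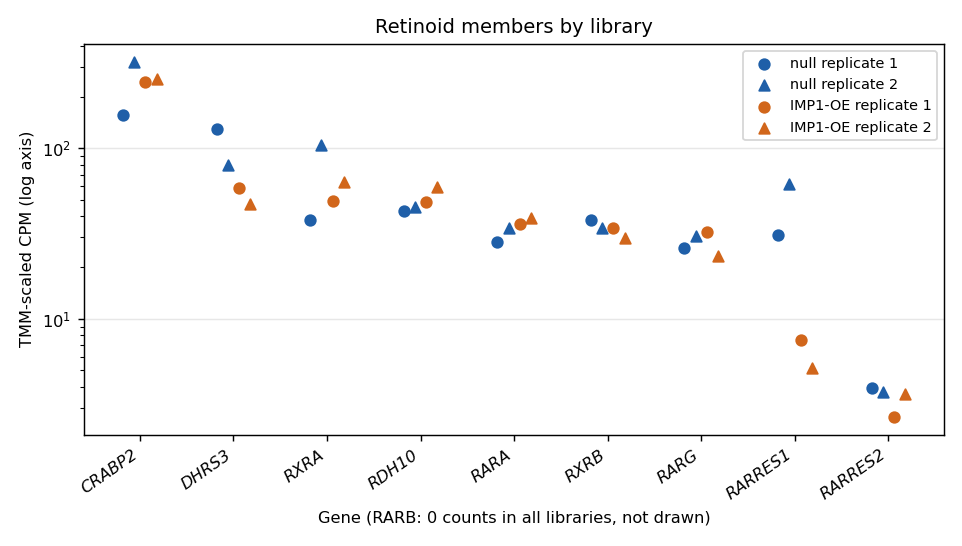
TMM-scaled CPM on a log axis for the members with counts, 1 point per library (blue null, orange IMP1-OE, circles replicate 1, triangles replicate 2). RARRES1 lies at 30.9 and 61.3 CPM in null and at 7.52 and 5.13 CPM in IMP1-OE, while the receptors lie close together across the 4 libraries except RXRA in null replicate 2.

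RARRES2, named for the same response to retinoids, encodes chemerin, a secreted chemoattractant. It was weakly expressed, at 3.91 and 3.72 CPM in null and 2.67 and 3.61 CPM in IMP1-OE, from 28 to 40 counts a library. The IMP1-OE values were lower than both null values by little, and the log2 fold change of -0.28 was smaller than its SE of 0.55. The 2 members that share the RARRES name therefore stood far apart in size of difference, -2.86 against -0.28 on the log2 scale, though this contrast was known when the list was made. PLAAT4, formerly RARRES3 and not a member, had a log2 fold change of -2.70, and of -0.91 without null replicate 2.

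The receptors differed little between the groups. RARA, the receptor found in most tissues, was at 28.1 and 34.03 CPM in null and 35.97 and 39.2 CPM in IMP1-OE. Both IMP1-OE libraries were above both null libraries, by a log2 fold change of 0.28 (SE 0.21). RARG, the receptor typical of epithelia, was at 26.0 and 30.4 CPM in null and 32.1 and 23.4 CPM in IMP1-OE, and the groups overlapped. Its log2 fold change was -0.03 (SE 0.25), and its sign changed with the null library left out (-0.13 without replicate 1 and 0.09 without replicate 2). The sign also changed with the IMP1-OE library left out (-0.27 without replicate 1 and 0.20 without replicate 2) and with scaling by library totals (0.06). RARB, itself a target gene of the receptors and often silenced in colon cancer, had 0 counts in all 4 libraries. That allows up to 0.321 CPM, before TMM scaling, at the shallowest library. The DR5 letters of its promoter are printed above. Per kilobase of transcript, RARA and RARG stood level in null (15.3 and 15.4 CPM per kilobase) and at 18.6 and 15.1 CPM per kilobase in IMP1-OE.

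RXRB, a partner receptor, was at 38.0 and 34.1 CPM in null and at 34.1 and 29.8 CPM in IMP1-OE, a log2 fold change of -0.17 (SE 0.20). Its higher IMP1-OE value, 34.07 CPM, lay just under the lower null value, 34.14 CPM. RXRA, the partner that predominates in most epithelia, was at 38.0 and 103.9 CPM in the null libraries, the higher being replicate 2, and at 48.8 and 63.3 CPM in IMP1-OE. Its IMP1-OE values lay between those of the null libraries. The log2 fold change was -0.34 (SE 0.46). It became -0.89 when null replicate 1 was left out and 0.56 when null replicate 2 was left out, so its direction depended on which null library was kept.

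Among the enzymes, DHRS3 and RDH10 lay on opposite sides. DHRS3, which returns retinal to retinol, was at 128.9 and 79.7 CPM in null and 58.1 and 47.2 CPM in IMP1-OE. All null values were above all IMP1-OE values, and the mean was 1.98-fold lower with IMP1 (104 ± 34.8 against 52.7 ± 7.71 CPM, log2 fold change -0.99, SE 0.28). In contrast to RARRES1, DHRS3 was lower in null replicate 2 than in null replicate 1, and its log2 fold change was -0.60 with replicate 1 left out and -1.29 with replicate 2 left out. The authors' deposited table gives DHRS3 an adjusted p of 0.114. RDH10, which makes retinal, was at 43.1 and 45.5 CPM in null and 48.6 and 59.4 CPM in IMP1-OE, a log2 fold change of 0.29 (SE 0.20) with no overlap.

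CRABP2, the carrier of retinoic acid, was the most abundant member, at 156.7 and 321.4 CPM in null and 244.2 and 253.7 CPM in IMP1-OE. The 2 IMP1-OE libraries lay between the null libraries, and the log2 fold change was 0.06 (SE 0.34). Without null replicate 2 it was 0.67 and without null replicate 1 it was -0.37, so no direction can be given.

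**Figure D2:**
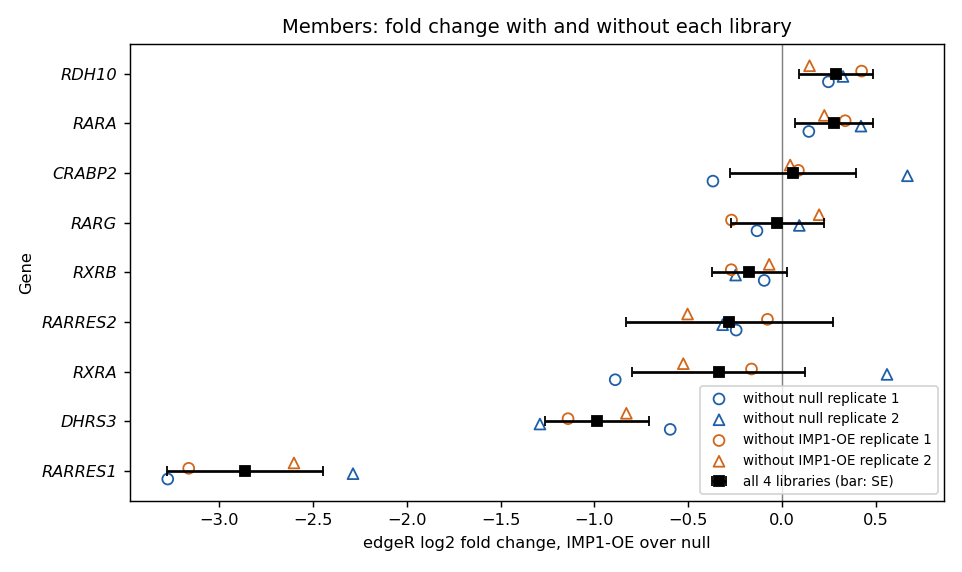
edgeR log2 fold change of each member, IMP1-OE over null, with all 4 libraries (black squares, bars 1 SE) and without each library in turn (open symbols). RARRES1 stays between -3.27 and -2.29 and DHRS3 between -1.29 and -0.60, while RXRA, CRABP2 and RARG change sign with the null library left out. RARG also changes sign with the IMP1-OE library left out.

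Over the 9 members with enough counts to be tested, the median log2 fold change was -0.17, against -0.02 over all 12113 genes. Groups did not overlap for 4 members lower in IMP1-OE (RARRES1, RARRES2, RXRB and DHRS3), a pattern seen in 21.9% of all tested genes, and for 2 members higher in IMP1-OE (RARA and RDH10), seen in 21.3%. The list was made with this comparison known, so nothing is read from these counts. Of the members, 1 (RARRES1) in the authors' deposited table has an adjusted p under 0.05, where 1.28% of all genes with an adjusted p are called and 0.849% are called lower in IMP1-OE. That call comes from the libraries that led to the choice of RARRES1, so it is likewise a description.

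Per kilobase of transcript, the order of the mean levels over 4 libraries was CRABP2 (236 CPM per kilobase), DHRS3 (35.7), RARA (17.0), RARRES1 (15.3), RARG (15.2), RDH10 (12.4), RXRB (11.8), RXRA (11.5), RARRES2 (2.15) and RARB (0). CRABP2 was above DHRS3, and RARRES2 under the others with counts, in every library. Neighbours from RARA to RXRA overlapped in their ranges over libraries. RARRES1 moved within this order: at 26.9 CPM per kilobase it stood next after CRABP2 and DHRS3 in null, and at 3.69 CPM per kilobase it stood above only RARRES2 and RARB in IMP1-OE.

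The spread within a group was itself large for some members. Between the null libraries, 4 of 9 members differed by over 1.5-fold, as did 35% of all tested genes. RXRA (2.73-fold), CRABP2 (2.05-fold) and RARRES1 (1.98-fold) were higher in null replicate 2, and DHRS3 stood there at 0.618 times its level in null replicate 1. Between the IMP1-OE libraries, 0 members differed by over 1.5-fold, against 20.2% of all tested genes.

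**Figure D3:**
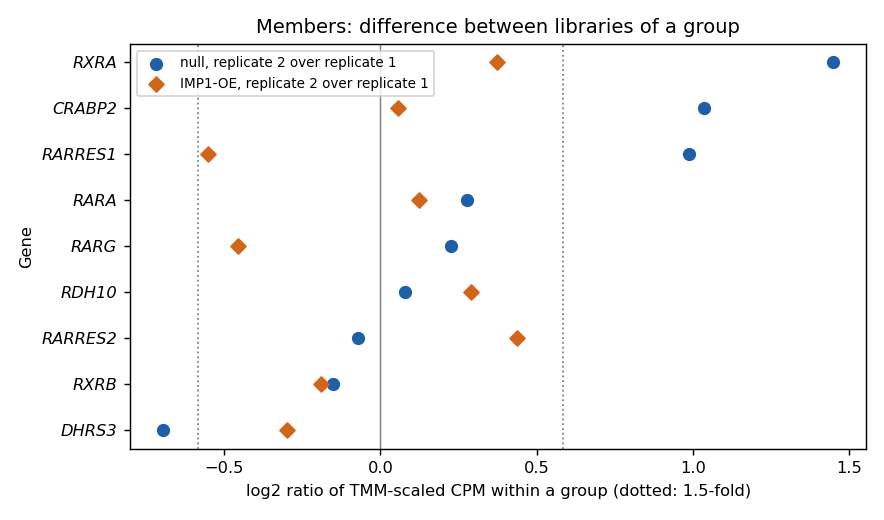
log2 ratio of replicate 2 over replicate 1 for each member within null (blue circles) and IMP1-OE (orange diamonds), with dotted lines at 1.5-fold. RXRA, CRABP2 and RARRES1 lie right of the upper line in null, DHRS3 lies left of the lower line, and no IMP1-OE point passes either line.

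Other genes of the pathway were taken from 10 lists set by role (115 symbols, 114 of them in the table, 68 with enough counts to be tested). Higher levels in IMP1-OE were found for 27 of the 68 and lower levels for 41, and their median log2 fold change was -0.06. Of all 12113 tested genes, 5821 were higher and 6292 lower, with a median of -0.02, and the splits of single lists below rest on few genes. By edgeR's quasi-likelihood test with Benjamini-Hochberg adjustment over all genes, 0 of 68 passed 0.05, as did 0% of all genes, and the smallest adjusted p was 0.433. At an unadjusted p under 0.05 there were 2 higher and 6 lower (LXN, CCRL2, NCOA3, PLAAT4, BTG2 and ALDH1A3), against 10.2% of all genes. DESeq2 called 3 of the 68, all lower in IMP1-OE: ALDH1A3, BTG2 and LXN. The authors' deposited p-values for these genes match those of DESeq2, so their calls of the same genes are not separate evidence. Over all genes with an adjusted p, 164 of 12836 were called (1.28%), and 0.849% were called lower in IMP1-OE. A fit without 1 null library rests on the other alone, so its spread comes only from the IMP1-OE pair. That pair differed by over 1.5-fold in 20.2% of tested genes, and the null pair in 35%. Calls without null replicate 1 thus describe null replicate 2, the library with the high interferon genes, and are no test of the groups. When null replicate 1 was left out, edgeR called 13 of the 68, with 6 higher (AKR1B10, AKR1C3, ALDH1A1, BHLHE40, SCARB1 and VDR) and 7 lower (ALDH1A3, BTG2, LIPE, NR1H3, PLAAT4, PPARG and TGM2). In that setting 783 of 12113 genes were called (6.46%). When null replicate 2 was left out, 0 of the 68 and 48 of all genes were called, and when either IMP1-OE library was left out, 0 of both.

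ALDH1A3, a retinal dehydrogenase, was at 25.3 and 59.9 CPM in null and at 9.23 and 12.1 CPM in IMP1-OE. Both null libraries were above both IMP1-OE libraries, a 3.99-fold lower mean level with IMP1 (log2 fold change -2.00, SE 0.45, edgeR adjusted p = 0.433). The authors' deposited table gives ALDH1A3 an adjusted p of 0.00588. Leaving out null replicate 1 gave a log2 fold change of -2.49, and leaving out null replicate 2 gave -1.25. ALDH1A1, a related dehydrogenase, was far more abundant per kilobase and overlapped between groups, at 1387 and 632 CPM in null and 1095 and 972 CPM in IMP1-OE (log2 fold change 0.03, SE 0.36). Leaving out null replicate 2 gave ALDH1A1 -0.42 and leaving out null replicate 1 gave 0.71 (log2). ALDH8A1, also on this list, stayed under 1 CPM in every library and was not tested. The median of the 2 tested genes of this list was -0.98 (log2).

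CYP26A1, the retinoic acid hydroxylase whose promoter holds the DR5 letters above, had 4 and 34 counts in null and 0 and 0 in IMP1-OE, too few to enter the edgeR test. Nearly all of its counts came from null replicate 2. In the authors' deposited table its adjusted p is 0.119. CYP26C1 was at 0.476 to 1.08 CPM and CYP26B1 at 0 to 0.665 CPM, with overlapping groups. CYP26C1 was the 1 gene of this list that could be tested (log2 fold change -0.36, SE 0.96).

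Uptake and binding proteins gave 3 higher and 1 lower of 4 tested (median log2 fold change 0.34). FABP5, a fatty acid carrier that can also deliver retinoic acid, was at 60.6 and 50.9 CPM in null and 88.7 and 76.8 CPM in IMP1-OE (log2 fold change 0.57, SE 0.20, edgeR adjusted p = 0.456). STRA6, the retinol uptake receptor, was at 9.39 and 13.1 CPM in null and 15.0 and 18.7 CPM in IMP1-OE (edgeR adjusted p = 0.578). Neither pair of groups overlapped, and neither difference passed. RBP4, the retinol carrier of blood, was at 10.1 ± 5.04 and 10.98 ± 1.27 CPM, and CRABP1 had 0 counts in all libraries.

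Of 12 tested retinol and retinal oxidoreductases, 3 were higher and 9 lower (median -0.16). ADH5 was at 220 ± 37.7 CPM in null and 215 ± 7.44 CPM in IMP1-OE. AKR1C3, whose close relatives can take the same short fragments, was at 147.6 and 57.1 CPM in null and 217 and 170 CPM in IMP1-OE (log2 fold change 0.92, edgeR adjusted p = 0.533), and its log2 fold change was 0.39 without null replicate 2. AKR1B10, another retinal reductase with a close relative, was at 182 and 18.7 CPM in null, with IMP1-OE between them at 97.7 and 79.3 CPM. Its log2 fold change of -0.18 became -1.04 without null replicate 2 and 2.24 without null replicate 1. The retinyl ester and carotenoid list had 3 tested genes, 1 higher and 2 lower (median -0.16). SCARB1, a receptor for lipoproteins and carotenoids, was at 132 and 51.9 CPM in null and 173 and 146 CPM in IMP1-OE, DGAT1 at 64.8 ± 4.34 and 57.8 ± 6.77 CPM, and the lipase LIPE at 28.9 and 113.7 CPM in null and 29.0 and 24.0 CPM in IMP1-OE. The log2 fold change of LIPE was -1.43, and -0.12 without null replicate 2. That of SCARB1 was 0.79, and 0.27 without null replicate 2.

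RXR partner receptors gave 2 higher and 7 lower of 9 tested (median -0.45). PPARG, a fatty acid receptor of differentiated colon epithelium, was at 102.5 and 163 CPM in null and 94.5 and 102.0 CPM in IMP1-OE (edgeR adjusted p = 0.605). The vitamin D receptor VDR was at 20.5 and 10.2 CPM in null and 27.9 and 27.8 CPM in IMP1-OE (adjusted p = 0.503 in edgeR). The oxysterol receptor NR1H3 was at 24.1 and 59.9 CPM in null and 29.9 and 24.8 CPM in IMP1-OE, with overlap. Leaving out null replicate 2 moved the log2 fold change of PPARG from -0.44 to -0.06, of VDR from 0.85 to 0.44 and of NR1H3 from -0.62 to 0.18. Coregulators gave 6 higher and 9 lower of 15 (median -0.01). TBL1XR1 (72.8 ± 16.8 and 78.4 ± 3.57 CPM) and SIN3A (72.4 ± 15.9 and 71.1 ± 11.4 CPM) overlapped between groups.

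Reported target genes were split, 8 higher and 8 lower of 16 tested (median 0.02). BTG2, an antiproliferative gene, was at 22.8 and 38.2 CPM in null and 11.6 and 6.84 CPM in IMP1-OE. The groups did not overlap, the mean was 3.30-fold lower with IMP1 (log2 fold change -1.72, SE 0.39, edgeR adjusted p = 0.433), and the authors' deposited table gives an adjusted p of 0.0233. PLAAT4, formerly RARRES3, an acyltransferase gene that interferon also induces, was at 42.7 and 253.9 CPM in null, the higher being replicate 2, and at 27.6 and 17.9 CPM in IMP1-OE. Its log2 fold change of -2.70 (SE 0.80, edgeR adjusted p = 0.446) became -0.91 when null replicate 2 was left out. TGM2, the tissue transglutaminase, a classical retinoid target, was at 236 and 2186 CPM in null and 288 and 417 CPM in IMP1-OE, and its log2 fold change of -1.78 became 0.58 without null replicate 2. PLAAT4 and TGM2 were thus highest in the library with the highest summed interferon genes, and the part of interferon in their values was not tested. GPRC5A, a retinoid-induced receptor, was at 594 ± 198 and 581 ± 44.0 CPM, with a log2 fold change of -0.03 and of -0.34 without null replicate 2.

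**Figure D4:**
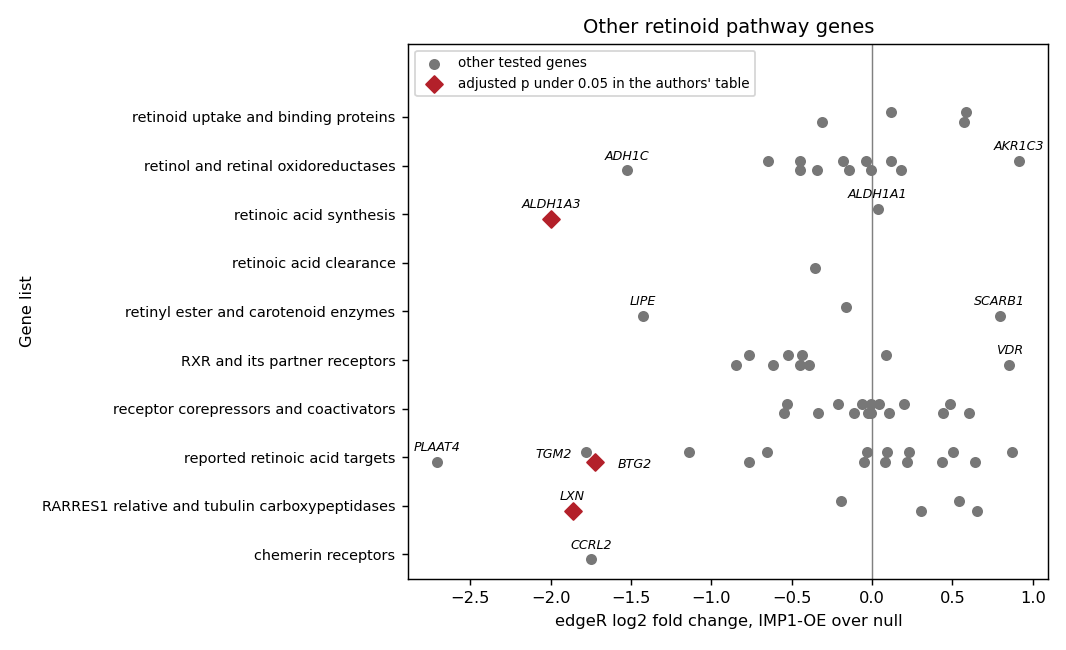
edgeR log2 fold change, IMP1-OE over null, of the 68 tested pathway genes by list, with grey points for genes not called and red diamonds for those with an adjusted p under 0.05 in the authors' deposited table. ALDH1A3, BTG2 and LXN are the red points, all left of 0, and the other points lie on both sides.

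LXN, latexin, is the relative of RARRES1. Ordered by start coordinate, these genes follow each other among the protein-coding genes of chromosome 3 in the RefSeq annotation of GRCh38.p14. LXN was at 15.8 and 18.5 CPM in null and 6.19 and 3.23 CPM in IMP1-OE, from 162, 169, 65 and 34 counts. The groups did not overlap, and the mean was 3.64-fold lower with IMP1 (17.2 ± 1.87 against 4.71 ± 2.09 CPM, log2 fold change -1.86, SE 0.42, edgeR adjusted p = 0.433). The authors' deposited table gives LXN an adjusted p of 0.0335. LXN varied little between the null libraries (1.17-fold), but in IMP1-OE replicate 2 it stood at 0.522 times its level in IMP1-OE replicate 1. Its log2 fold change was -1.75 with null replicate 2 left out and -1.97 with null replicate 1 left out. It was -2.40 without IMP1-OE replicate 1 and -1.46 without IMP1-OE replicate 2.

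The remaining neighbours, looked up after the values of RARRES1 and LXN were seen, had levels that overlapped between the groups, or too few counts to be tested. GFM1, a mitochondrial elongation factor gene whose start coordinate comes before that of LXN, was at 98.7 ± 28.2 CPM in null and 102 ± 1.83 CPM in IMP1-OE. MFSD1, a lysosomal transporter gene on the far side of RARRES1, was at 20.9 ± 5.43 and 20.3 ± 1.70 CPM. MLF1 was at 10.1 ± 4.17 and 7.85 ± 0.881 CPM and RSRC1 at 9.58 ± 2.09 and 14.1 ± 4.83 CPM. The edgeR log2 fold changes of these 4 genes ran from -0.36 (MLF1) to 0.55 (RSRC1), and the smallest unadjusted p was 0.200 (edgeR). IQCJ and SCHIP1 had 0 counts. LXN lies within the span of GFM1 in RefSeq and the strand setting of the counting is not given in the labels, so reads could be shared. Whether LXN and RARRES1 differ from these neighbours in response was not tested.

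**Figure D5:**
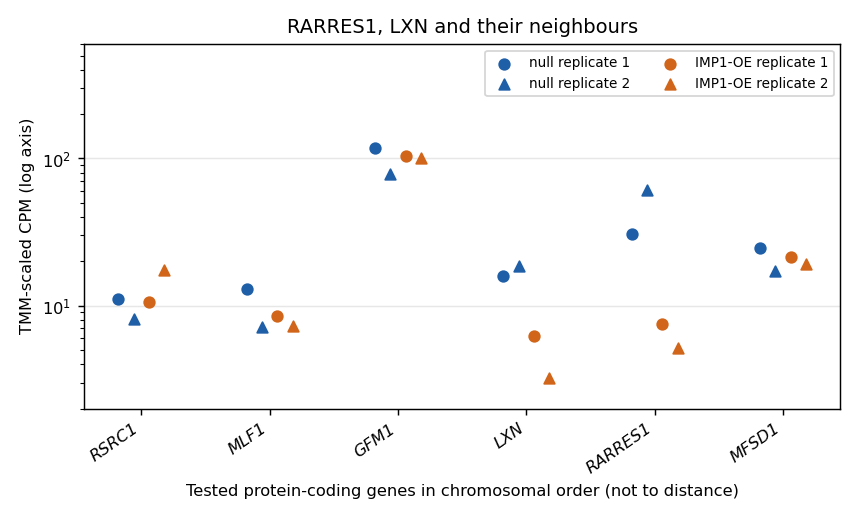
TMM-scaled CPM on a log axis for the tested protein-coding genes around RARRES1, ordered by start coordinate, 1 point per library. RARRES1 and LXN have both orange IMP1-OE points below both blue null points, and the groups overlap for RSRC1, MLF1, GFM1 and MFSD1.

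The other genes tied to RARRES1 by function were the tubulin carboxypeptidases, since RARRES1 has been described to bind AGBL2. AGBL2 was under 1 CPM in all libraries and was not tested. AGBL5 was at 15.7 ± 2.99 and 13.7 ± 0.0562 CPM and AGTPBP1 at 12.5 ± 6.82 and 15.5 ± 1.83 CPM, with overlap for each. Of 5 tested on the list, 3 were higher and 2 lower (median 0.31). Of the receptors of chemerin, the RARRES2 product, CMKLR1 had at most 0.438 CPM and CMKLR2 had 0 counts. CCRL2, which binds chemerin without signalling, was at 4.99 and 10.7 CPM in null and 1.71 and 2.95 CPM in IMP1-OE (log2 fold change -1.75, SE 0.61, edgeR adjusted p = 0.457). Leaving out null replicate 2 gave CCRL2 -1.09 on the log2 scale, and leaving out null replicate 1 gave -2.20.

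The genes whose profiles over the 4 libraries lay closest to RARRES1 were FAM47E-STBD1, FAM169A, CDK3, RAB32 and NPIPB13, by Euclidean distance between log2 values centred on each gene's mean (0.398 to 0.575, median over all genes 2.86). All 5 were of low level, at 2.42 to 5.07 CPM in null and 0 to 0.523 CPM in IMP1-OE. FAM47E-STBD1 and CDK3 had 0 counts in IMP1-OE, and read-through and multicopy genes such as FAM47E-STBD1 and NPIPB13 are uncertain with fragments this short. LXN ranked as number 43 by this distance (1.07) and ALDH1A3 as number 46 (1.09). At these levels in IMP1-OE the value of 0.5 CPM added before taking logs sets most of the profile, so their closeness depends on it, and the fitted log2 fold changes of FAM47E-STBD1 (-7.71), CDK3 (-7.61), FAM169A (-4.65) and NPIPB13 (-4.49) lie far from that of RARRES1 (-2.86). That of RAB32 was -3.12. With 4 libraries, many genes can share a profile.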

How the data were processed

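RNA fragments of 18 to 50 nt were sequenced from 4 libraries, per the labels' protocols. The authors deposited kallisto's estimated counts, per the file headers, which are whole numbers. The submitters' processing notes name kallisto 0.46.2, HISAT2 2.1.0, fastp 0.21, cutadapt 3.5 and DESeq without roles. The linkers carried molecular identifiers, per the labels' protocols, but no source used here states their use in counting, so floors cover counting error only. The genome build is likewise not given. The deposited comparison table holds a mean normalized signal, log2 fold changes and p-values, per the file headers. Its p-values for the named pathway genes match those of DESeq2 run here, but its log2 values are smaller in size (TGM2 -0.02 against -1.77). The log2 values thus appear shrunken, although no source states it, and they are not compared with edgeR's. In the count table, 2 sample names match none of the labels and are not analysed here.

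Counts were tested with edgeR 4.0.16 (R 4.3.3): default low-count filter (12113 genes kept), TMM scaling, quasi-likelihood F test, IMP1-OE against null without covariates, Benjamini-Hochberg threshold 0.05. SE is the log2 fold change divided by the root of F. The fit was run on simulated counts with the same spread set for every gene. That checks the code, and not how the fit behaves at the spread of these libraries. An exact two-sided permutation test of 2 against 2 cannot give a p under 0.333. Alternatives were limma 3.58.1 (voom), DESeq2 1.42.0, RLE or total scaling, no filter, omission of ARSI, a replicate block and omission of each library. Profiles used log2(CPM + 0.5). The members and lists were chosen with earlier results of these data known. Named from each list were genes called by edgeR or the authors, the 3 of highest mean CPM, and CYP26A1, STRA6, CRABP1, LXN, PLAAT4 and IGF2BP1. A gene this rule names is not reported here.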

Additional observations from a re-analysis of the deposited data

How the results depend on the processing

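RARRES1 was lower in IMP1-OE under all 11 alternatives, with log2 fold changes from -3.27 to -2.29, the latter without null replicate 2, which moved it by more than the spread between replicates. Of 88 values for the 8 other members with counts, 83 stayed within that spread and 5 did not, all from leaving out a library (RXRA, CRABP2, DHRS3 and, for either IMP1-OE library, RARRES2). The spread is each gene's own, so a variable gene can change sign within it, as CRABP2 did without null replicate 1 (-0.37). These counts therefore do not show that directions were stable. Pathway genes called numbered 0 in edgeR and 3 with DESeq2, and 0 to 13 when a library was left out. All genes called numbered 0 in edgeR (1233 at an unadjusted p under 0.05), 22 with no filter on low counts, 164 with DESeq2, 1 with limma-voom and 0 to 783 when a library was left out. Each fit with a library left out had 1 library in a group, so its calls describe that library and are no test of the groups. With the replicate number as a block, edgeR called 15 genes, 0 of them on the pathway lists. Same-numbered libraries deviated together with a correlation of 0.13 across genes, the labels do not say that the numbers pair libraries, and with 2 pairs the data cannot show it. With 28 to 40 counts a library, RARRES2 is limited by depth, and RARB by 0 counts.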

Other observations

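Some pathway genes, chosen after their values were seen, had levels set by 1 library. DHRS9, a retinol dehydrogenase gene, was at 5.48 CPM in null replicate 1 and at 0.109 to 0.665 CPM in the other libraries. GPRC5B, a relative of the retinoid-induced receptor GPRC5A, had 2 and 16 counts in null and 0 and 0 in IMP1-OE, the same order of libraries as CYP26A1 (4, 34, 0 and 0). LRP2, an endocytic receptor for retinol carriers, had 15 counts in IMP1-OE replicate 1 and 0, 0 and 1 elsewhere. BHLHE40, a transcription factor gene on the reported target list, was at 4.27 CPM in null replicate 2 and at 18.3 to 21.9 CPM in the other libraries.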
